A study of Mus musculus with 81 samples.

Results

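The response of intact hippocampal area CA1 to contextual fear conditioning was measured by RNA sequencing in 5 of the 81 samples of the series. These were the mice of the raw count table made for fear conditioning alone, in which no animal had surgery or received a virus. The trained group held 2 young adult male C57BL/6J mice killed 1 h after they had explored a chamber and received foot shocks there. The untrained group held 3 males of the same strain that stayed in their home cage, so being moved, exploring a new place, being shocked and learning cannot be told apart. Mice of a cage belonged to the same group, and each library came from a mouse with its own number in the labels. All 24500 genes of the table were taken, and 15641 had enough reads to be tested. A second, independent experiment was used for comparison: 3 untrained and 3 trained mice, also taken 1 h after training, whose CA1 carried a virus with a scrambled short hairpin RNA (shScr). It was prepared with a ribosomal RNA depletion kit at another centre and counted over whole transcripts, introns included.

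Neurons that fire strongly transcribe a set of genes within minutes, without first making new protein. These immediate early genes encode transcription factors such as Fos and the Egr proteins, synaptic proteins such as Arc, and inhibitors that shut off the signals which induced them. Calcium entry and the kinases it activates act on factors already bound to DNA, among them CREB at cAMP response elements and SRF at CArG boxes. A foot shock also releases glucocorticoid hormones, which switch on a further set of genes through their own receptor in neurons and glia.

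Library totals ran from 48769140 to 58655523 counts. Levels are given as CPM, the counts of a gene scaled to 1 common library size, after TMM scaling, which adjusts for library composition. The first principal component of the 5 libraries carried 49.2% of the variance, with trained mice at 24.8 and 14.5, and untrained mice at -26.4, 2.02 and -15.0. Untrained mouse 2 therefore lay nearest to the trained mice. Summed levels of 10 CA1 pyramidal neuron markers were between 1601 and 2095 CPM in all 5 mice, so the neurons of the labelled region were present. Markers of neighbouring regions were present too, and their levels differed between mice. The 10 dentate granule neuron markers summed to 198, 302 and 190 CPM in untrained mice 1, 2 and 3, and to 397 and 265 CPM in trained mice 1 and 2, with a median log2 fold change of 0.71 and no member called. The 10 cortical neuron markers summed to 1167, 747 and 948 CPM in untrained mice and to 683 and 689 CPM in trained mice, with a median of -0.44. Of the tests described below, edgeR called no cortical marker at an adjusted p under 0.05. DESeq2 called 1 lower at 0.01, where it called 0.69% of all genes lower. Both trained mice lay below all untrained mice for 5 of the 10, beside 19.5% of all genes. The dentate median was 0.28 without trained mouse 1, 0.45 without untrained mouse 1 and 1.12 without untrained mouse 2, and the cortical median was -0.15 without untrained mouse 1. In the shScr mice the same medians were 0.01 and 0.02. The choroid plexus and ependyma markers summed to 421, 376 and 385 CPM against 332 and 207 CPM. Their median log2 fold change was 0.01, with 6 members positive, 4 negative and none called, so the sum does not describe most members. In bulk tissue, fewer cells of a type and less RNA per cell cannot be told apart, and the part of these differences in the results was not tested.

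**Figure D1:**
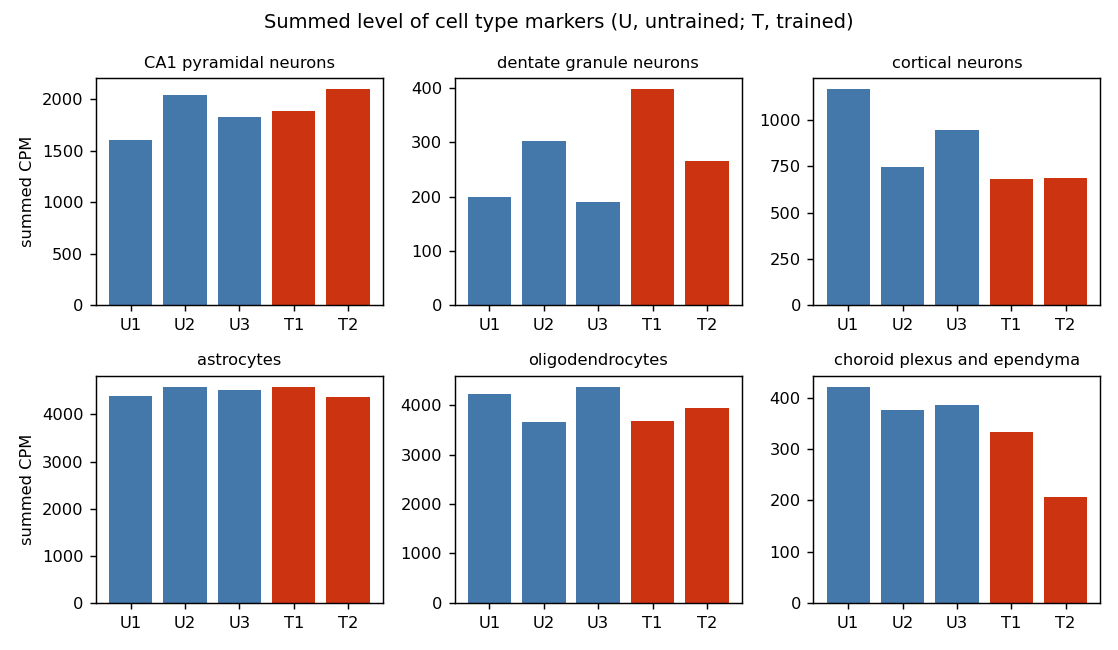
Summed CPM of the marker genes of 6 cell types in each mouse (bars; U, untrained; T, trained). Dentate markers were highest in trained mouse 1 at 397 CPM and cortical markers in untrained mouse 1 at 1167 CPM, while untrained mouse 2 lay close to the trained mice for both.

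Trained mice had higher levels of a set of genes that held members of the immediate early, glucocorticoid-induced and clock gene lists. Egr2 rose most, from a mean of 1.05 to 11.0 CPM, Fos and Arc rose 4.26- and 4.25-fold, and Nr4a1, Sik1 and Egr4 rose 2.8-, 2.75- and 2.74-fold. At the study's threshold, an adjusted p under 0.01 in edgeR's quasi-likelihood test with Benjamini-Hochberg adjustment, 15 of 15641 genes were called, all of them higher in trained mice, which was 0.0959% of the genes tested. At an adjusted p under 0.05, 236 genes were higher (1.51%) and 47 were lower (0.3%). DESeq2, the tool the study used, called 364 genes higher (2.33%) and 108 lower (0.69%) at 0.01, among them all 15. The median log2 fold change of all genes was -0.01, and in 20.3% of genes both trained mice lay above all 3 untrained mice. The edgeR count moved with single libraries. Without untrained mouse 2 it was 416, of which 255 were higher, without untrained mouse 3 it was 2, without trained mouse 1 it was 1 and without trained mouse 2 it was 2. The 15 genes kept a higher level in trained mice under each of these, and DESeq2 called all 15 with any 1 library left out.

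**Figure D2:**
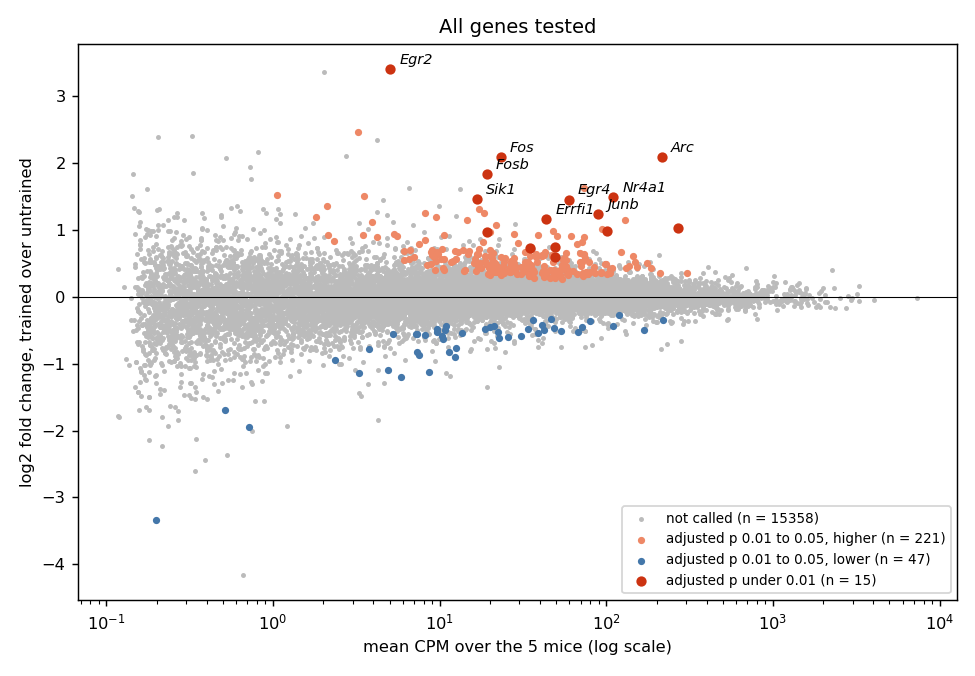
Log2 fold change of trained over untrained mice against the mean CPM of the 5 mice (log scale), 1 point per gene for 15641 genes. The 15 genes past an adjusted p of 0.01 (dark red) all lie above 0, and 221 of the 268 further genes past 0.05 do.

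**Figure D3:**
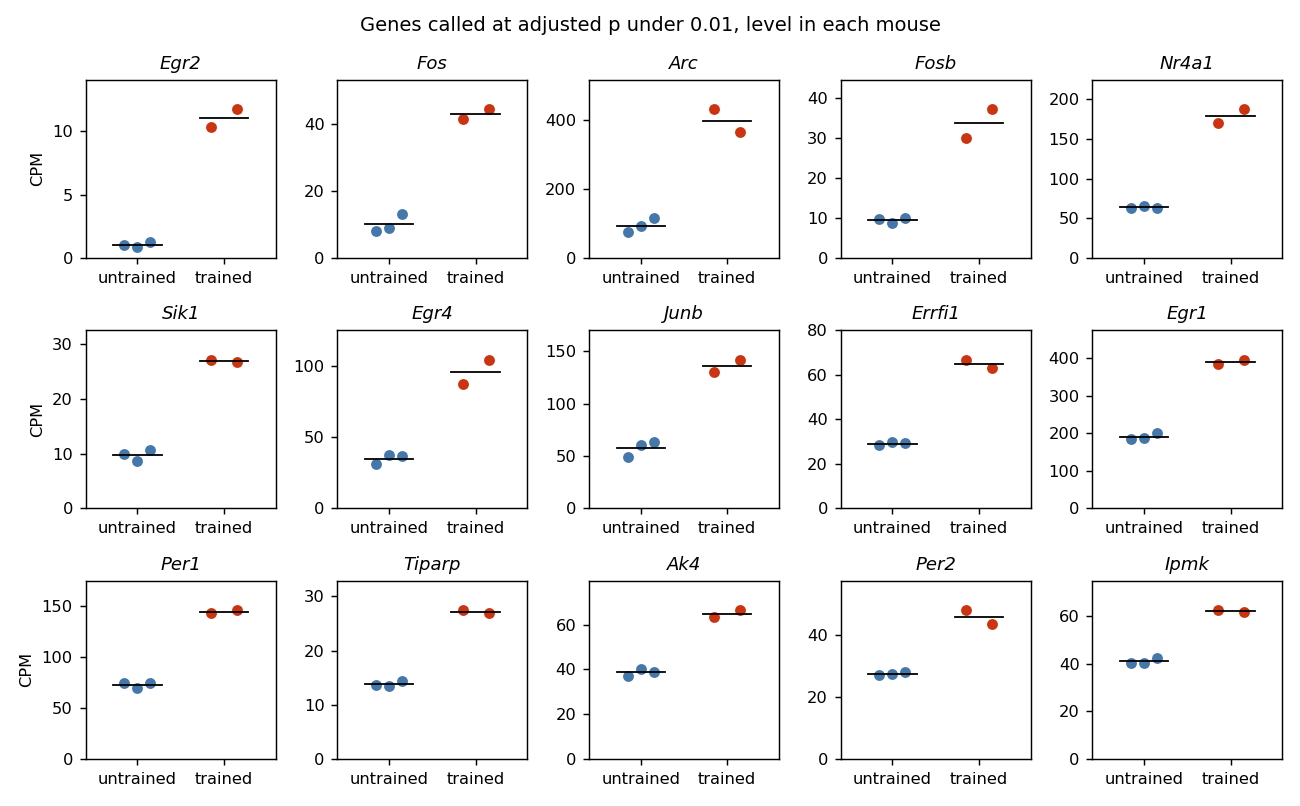
CPM of the 15 genes called at an adjusted p under 0.01 in each of the 3 untrained and 2 trained mice (points), with the group means (lines). In each panel both trained mice lie above all untrained mice.

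Immediate early transcription factors held the most genes called higher by edgeR of any list. Counts of list members are edgeR's unless DESeq2 is named, and in them rose or fell means called at the threshold given. Lists and members were chosen with earlier results of these data known, so the shares called can be raised by that choice. They describe the lists and do not test enrichment. Of 30 listed genes 29 were tested. Of these 7 rose at an adjusted p under 0.01 and 16 at 0.05, beside 0.0959% and 1.51% of all genes, and none fell. DESeq2 called 16 higher and 1 lower at 0.01, beside 2.33% and 0.69% of all genes. The median log2 fold change of the list was 0.63 beside -0.01 for all genes. Egr2, a zinc finger factor of the early growth response family, had 0.986, 0.878 and 1.27 CPM in untrained mice 1, 2 and 3 and 10.4 and 11.7 CPM in trained mice 1 and 2. Its counts were 59, 44 and 62 against 567 and 597 reads, a log2 fold change of 3.40 ± 0.16 (SE; edgeR adjusted p = 0.000583). The groups were far apart, and the spread within each was small beside the difference. Egr1, the best studied member of that family, had 184, 189 and 200 CPM in untrained mice and 385 and 395 CPM in trained mice, a 2.05-fold difference (log2 1.03 ± 0.05, edgeR adjusted p = 0.000961). Egr4 had 31.2, 37.5 and 36.6 CPM against 87.7 and 104 CPM. Egr3, the fourth member, rose only at the looser threshold, from 112, 120 and 114 CPM to 150 and 161 CPM (log2 0.43 ± 0.06, edgeR adjusted p = 0.0267). All members of the family thus had trained mice above untrained mice, with Egr2 and Egr3 at the ends of the range of fold changes.

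The AP-1 factors are dimers of Fos and Jun proteins. Fos had 8.02, 9.06 and 13.2 CPM in untrained mice and 41.4 and 44.2 CPM in trained mice, a log2 fold change of 2.09 ± 0.18 (edgeR adjusted p = 0.00961). Untrained mouse 3 was the highest of its group, and still far below both trained mice. Fosb, which also gives the long-lived delta-FosB, had 9.66, 8.64 and 10.1 CPM against 30.1 and 37.2 CPM (log2 1.83 ± 0.11, edgeR adjusted p = 0.0017). Junb had 49.2, 60.7 and 63.6 CPM against 130 and 142 CPM (log2 1.23 ± 0.11, edgeR adjusted p = 0.00905). Jun did not pass, at 69.2, 84.3 and 73.1 CPM against 134 and 90.2 CPM, with the trained mice far apart. Jund, a factor with a steady level in most cells, had a log2 fold change of -0.04 ± 0.06.

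Nr4a1, an orphan nuclear receptor, gave the smallest p of all genes, at 62.8, 65.7 and 62.7 CPM in untrained mice and 171 and 187 CPM in trained mice (log2 1.49 ± 0.06, edgeR adjusted p = 0.000512). Its relative Nr4a3 rose at 0.05, from 55.0, 80.9 and 65.5 CPM to 128 and 142 CPM. The third relative, Nr4a2, did not pass, at 131, 150 and 166 CPM against 180 and 192 CPM. Srf, which encodes the factor that binds CArG boxes, rose from 56.0, 63.9 and 61.5 CPM to 95.7 and 91.7 CPM (edgeR adjusted p = 0.0154). Npas4, a neuron-specific factor that responds quickly to activity, had 10.3, 11.0 and 17.5 CPM in untrained mice and 10.1 and 10.6 CPM in trained mice. Its groups overlapped, with a log2 fold change of -0.31 ± 0.22. Egr3, Jun, Jund, Nr4a2, Nr4a3, Srf and Npas4 were chosen after their values were seen.

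Synaptic and secreted effectors of activity had fewer members called. Among 31 tested genes, 1 rose at 0.01 and 5 at 0.05, beside 0.0959% and 1.51% of all genes, with a list median of 0.37. Arc, which regulates the removal of AMPA receptors from synapses, had 74.4, 91.9 and 115 CPM in untrained mice and 430 and 365 CPM in trained mice (log2 2.09 ± 0.17, edgeR adjusted p = 0.00676). Both groups varied, but the lower trained mouse lay more than 3 times above the highest untrained mouse. Plat, tissue plasminogen activator, rose at 0.05 from 27.0, 26.7 and 25.2 CPM to 44.3 and 38.9 CPM (edgeR adjusted p = 0.0166). Rasl11a and Thbs1 also passed 0.05, with log2 fold changes of 1.35 and 0.89. Bdnf, the neurotrophin, had 34.8, 44.6 and 37.4 CPM against 47.5 and 45.6 CPM, a difference that did not pass (log2 0.26 ± 0.10, edgeR adjusted p = 0.226). Homer1, a postsynaptic scaffold gene whose short form is activity-induced, had a log2 fold change of 0.30 ± 0.09 that did not pass either. Short and long Homer1 forms were not counted apart. Bdnf and Homer1 were likewise chosen after their values were seen.

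Some genes that damp the inducing signals rose alongside. Of 37 feedback inhibitors 2 rose at 0.01 and 12 at 0.05, beside 0.0959% and 1.51% of all genes. None of the 37 was called lower at 0.05, while 29 had a positive and 8 a negative log2 fold change, and the median was 0.26. Errfi1, which blocks the EGF receptor, had 28.5, 29.7 and 29.2 CPM in untrained mice and 66.8 and 63.3 CPM in trained mice (log2 1.16 ± 0.05, edgeR adjusted p = 0.000583). Sik1, a kinase that keeps CREB co-activators out of the nucleus, had 9.93, 8.76 and 10.7 CPM against 27.2 and 26.8 CPM (log2 1.46 ± 0.09, edgeR adjusted p = 0.00185). Each of the pair showed little spread within either group. At 0.05 the list also held the MAP kinase phosphatases Dusp5 (log2 1.25 ± 0.13) and Dusp6 (log2 0.90 ± 0.11), the Ras pathway inhibitor Spry4 (log2 0.65 ± 0.06) and the Egr co-repressor Nab2 (log2 0.62 ± 0.06), of which Dusp5, Dusp6 and Nab2 were chosen after their values were seen.

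Glucocorticoid-induced genes had a list median of 0.50 over 34 tested genes, the second highest of the 14 lists of genes that are not cell type markers. At 0.01, 3 rose, and at 0.05, 9 rose, beside 0.0959% and 1.51% of all genes, and none fell. Besides Errfi1 and Per1, which stand in other lists too, Tiparp rose at 0.01, from 13.7, 13.4 and 14.4 CPM to 27.4 and 26.9 CPM (log2 0.97 ± 0.06, edgeR adjusted p = 0.002). Tiparp encodes an enzyme that attaches ADP-ribose to proteins. Sgk1, a kinase that is a classic target of the glucocorticoid receptor, had 39.4, 41.7 and 38.3 CPM in untrained mice and 147 and 98.1 CPM in trained mice. The trained mice differed from each other by more than the untrained mice did, and the gene passed 0.05 only (log2 1.62 ± 0.15, edgeR adjusted p = 0.0127). Some well-known targets did not pass. Fkbp5, a co-chaperone of the receptor, had 47.4, 60.3 and 44.5 CPM against 65.7 and 54.1 CPM, with overlapping groups, and Tsc22d3 had 63.6, 48.6 and 53.5 CPM against 97.2 and 78.1 CPM without passing 0.05 (edgeR adjusted p = 0.0597). Fkbp5 and Tsc22d3 were chosen after their values were seen. The median of this list without trained mouse 1 was 0.33.

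Clock genes split. Of 23 tested genes 2 rose at 0.01 and 5 at 0.05, beside 0.0959% and 1.51% of all genes, while the list median was 0.05. Per1 and Per2, the repressor arm of the clock and both inducible by CREB, were the 2. Per1 had 74.6, 69.5 and 74.9 CPM in untrained mice and 143 and 146 CPM in trained mice (log2 0.98 ± 0.05, edgeR adjusted p = 0.000961). Per2 had 27.0, 27.6 and 28.1 CPM against 48.0 and 43.7 CPM (log2 0.73 ± 0.06, edgeR adjusted p = 0.00676). The third Period gene, Per3, had a log2 fold change of 0.02 ± 0.07, and Arntl and Clock, the activating pair, had -0.19 ± 0.09 and 0.08 ± 0.05. Tef and Bhlhe40 rose at 0.05, by 0.35 and 0.43 on the log2 scale. Per3, Arntl and Clock were chosen after their values were seen.

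**Figure D4:**
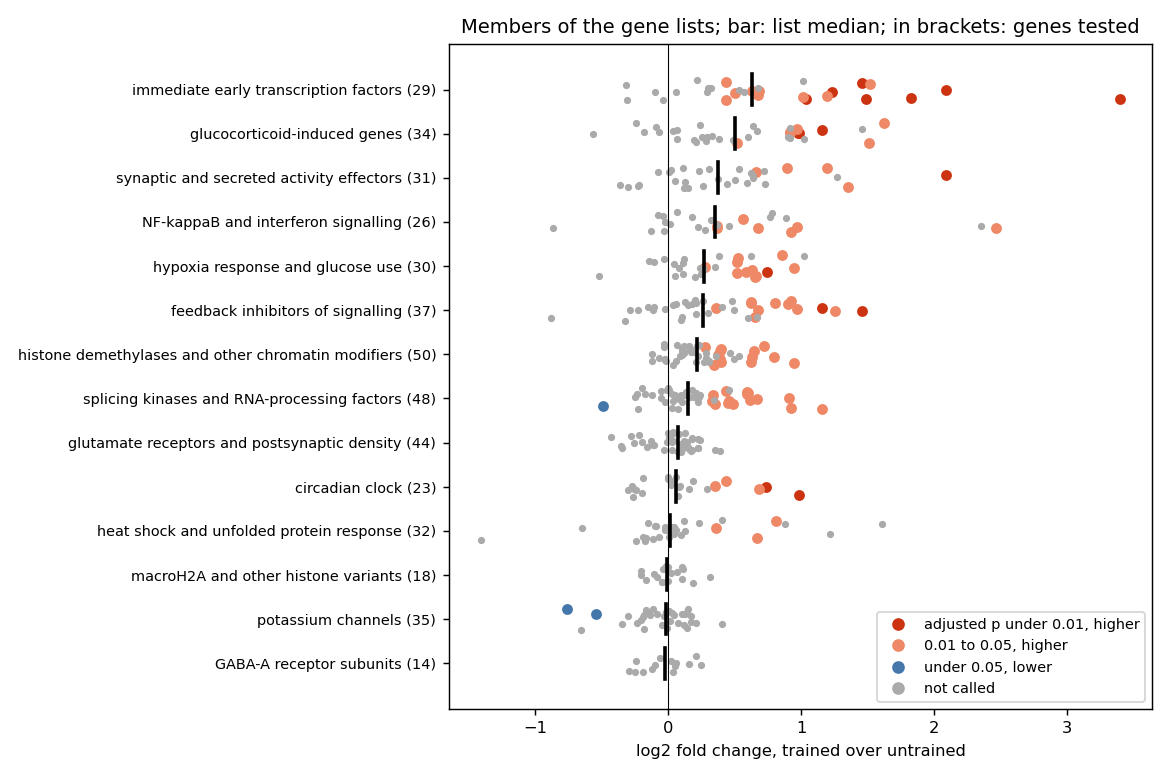
Log2 fold change of trained over untrained mice for each tested member of 14 gene lists (points; dark red, adjusted p under 0.01; orange, 0.01 to 0.05 and higher; blue, under 0.05 and lower; grey, not called), with the list median as a black bar. Immediate early transcription factors have the highest median, 0.63, and GABA-A receptor subunits the lowest, -0.02.

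Chromatin modifiers held many small increases. None of 50 tested genes passed 0.01, 13 rose at 0.05, beside 1.51% of all genes, none fell, and the list median was 0.21. Kdm6b, which removes methyl groups from lysine 27 of histone H3, had 37.1, 38.6 and 40.6 CPM in untrained mice and 58.4 and 61.0 CPM in trained mice (log2 0.62 ± 0.06, edgeR adjusted p = 0.0112). Sap30, a subunit of the Sin3 deacetylase complex, had 3.69, 4.07 and 3.84 CPM against 7.60 and 7.29 CPM. Jmjd6, a Jumonji-domain hydroxylase, and Rrp8, a nucleolar methyltransferase, rose by 0.72 and 0.63 on the log2 scale. Both trained mice lay above all untrained mice for the 4, which were picked for the smallest p of the list, and for 20.3% of all genes.

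The genes of the histone variants that the series is about did not pass either threshold. H2afy, which encodes macroH2A1, had 73.2, 72.2 and 69.9 CPM in untrained mice and 71.6 and 71.7 CPM in trained mice, a log2 fold change of -0.003 ± 0.046. H2afy2, which encodes macroH2A2, had 19.4, 16.0 and 16.9 CPM against 14.6 and 16.4 CPM (log2 -0.17 ± 0.10, edgeR adjusted p = 0.383). Of 18 tested genes for histone variants and their chaperones none passed 0.05, and the median was -0.01.

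RNA-processing factors were called higher more often than lower. Of 48 tested genes 15 rose and 1 fell at 0.05, beside 1.51% and 0.3% of all genes. None passed 0.01 and the median was 0.15, while DESeq2 called 17 higher and 3 lower at 0.01. Rsrp1, an arginine- and serine-rich nuclear protein, had 88.8, 76.9 and 94.7 CPM in untrained mice and 216 and 170 CPM in trained mice (log2 1.15 ± 0.12, edgeR adjusted p = 0.0154). Clk1, a kinase that phosphorylates splicing factors, had 32.3, 26.6 and 26.4 CPM against 58.2 and 49.6 CPM. Pcf11, which acts in transcript cleavage, and Cwc25, a spliceosome factor, rose by 0.62 and 0.43 on the log2 scale. Srsf5, a splicing factor, was the member that fell at 0.05 in edgeR, from 212, 179 and 183 CPM to 132 and 140 CPM. In the shScr mice the median of this list was 0.02, and Srsf5 had a log2 fold change of 0.02.

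Genes of the hypoxia response and of glucose use had 30 tested members, with a median of 0.27. Of these 1 rose at 0.01 and 11 at 0.05, beside 0.0959% and 1.51% of all genes, and none fell. Ak4, a mitochondrial adenylate kinase, had 36.9, 40.3 and 39.0 CPM in untrained mice and 63.4 and 66.4 CPM in trained mice (log2 0.74 ± 0.06, edgeR adjusted p = 0.00522). Mknk2, Ppp1r3g and Irs2 passed 0.05, with log2 fold changes of 0.52, 0.85 and 0.65. Mknk2 encodes a kinase of the translation factor eIF4E, Ppp1r3g a glycogen-targeting phosphatase subunit, and Irs2 an adaptor of the insulin receptor. Slc2a1, the glucose transporter of the blood-brain barrier, had 61.8, 59.9 and 55.2 CPM against 87.9 and 81.4 CPM, passed 0.05 and was chosen after its values were seen.

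Among 26 tested genes of NF-kappaB and interferon signalling, 7 rose at 0.05, beside 1.51% of all genes. None passed 0.01, and the list median was 0.35. Tnfrsf25, a death receptor of the tumour necrosis factor family, had 0.785, 1.64 and 1.05 CPM in untrained mice and 8.02 and 4.65 CPM in trained mice, a large difference at a low level (log2 2.47 ± 0.33, edgeR adjusted p = 0.0274). Tnfaip3, which ends NF-kappaB signalling, rose from 6.74, 7.86 and 7.05 CPM to 11.8 and 11.1 CPM. Without trained mouse 1 the list median was 0.18. Of 32 heat shock and unfolded protein response genes 3 rose at 0.05, beside 1.51% of all genes, with a median of 0.01. They were Dnajb5, Dnajb1 and Ppp1r15b, the former pair being co-chaperones of Hsp70, with log2 fold changes of 0.67, 0.81 and 0.36.

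Channel and receptor genes had list medians close to 0. Of 35 potassium channel genes none rose and 2 fell at 0.05 in edgeR, where 0.3% of all genes fell, and the median was -0.02. DESeq2 called 1 of the 35 higher and 2 lower at 0.01, beside 2.33% and 0.69% of all genes. Trained mice lay below all untrained mice for 10 of the 35 and above them for 3, beside 19.5% and 20.3% of all genes. Kcna4, a Shaker channel, went from 41.8, 48.5 and 42.7 CPM to 32.4 and 28.3 CPM (log2 -0.54 ± 0.09, edgeR adjusted p = 0.0394), and Kcnj2, an inward rectifier, from 16.7, 13.5 and 14.7 CPM to 9.84 and 7.76 CPM. None of 44 glutamate receptor and postsynaptic density genes passed 0.05 in edgeR, with a median of 0.07, while DESeq2 called 1 lower at 0.01. The nearest in edgeR was Grik1, a kainate receptor subunit, at a log2 fold change of -0.43 ± 0.08 (edgeR adjusted p = 0.0527). None of 14 GABA-A receptor subunits passed either, and their median was -0.02.

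Among the 15 genes, Ipmk, an inositol phosphate multikinase that stands in none of the lists, had the smallest change, from 40.3, 40.3 and 42.5 CPM to 62.3 and 61.5 CPM (log2 0.59 ± 0.05, edgeR adjusted p = 0.00721). Gadd45b, a growth arrest gene tied to DNA demethylation in neurons, rose at 0.05 from 11.8, 10.7 and 10.8 CPM to 16.5 and 19.7 CPM. Further genes past 0.05 were chosen after their values were seen, and Mcl1, an anti-apoptotic protein, Rara, a retinoic acid receptor, Ccnd2, a cyclin, and Mdm2, the p53 ligase, rose by 0.52, 0.61, 0.56 and 0.39 on the log2 scale.

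Apart from Kcna4, Kcnj2, Srsf5 and Sox9, the 47 genes that fell at 0.05 lay outside the lists, and those named here were also chosen after their values were seen. Cirbp, an RNA-binding protein induced by mild cold, fell from 49.3, 44.9 and 49.2 CPM to 32.9 and 34.9 CPM (log2 -0.50 ± 0.06, edgeR adjusted p = 0.0248). Usp2, a ubiquitin protease, fell from 80.3, 82.9 and 77.1 CPM to 59.0 and 57.6 CPM. Klf11 and Klf7, zinc finger factors, fell by 0.83 and 0.52 on the log2 scale. Cbln4, a secreted synapse organiser, fell from 15.9, 13.7 and 15.8 CPM to 7.29 and 8.99 CPM. Tfrc, the transferrin receptor, and Fbxw7, a ubiquitin ligase subunit, fell by 0.43 and 0.35 on the log2 scale. Cldn1, a tight junction protein, had 8.84, 5.67 and 8.34 CPM against 3.32 and 3.30 CPM. Sox9, a glial transcription factor, fell by 0.48 on the log2 scale, while the 10 astrocyte markers to which it belongs summed to between 4363 and 4585 CPM in all mice.

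The promoters of the leading transcription factor and clock genes are shown because elements for CREB, SRF, EGR and clock factors lay in them. RefSeq's table for GRCm38.p6 held a promoter window, 250 bases before to 50 after a transcript's start, for 11 of the 15 genes, and for Arc, Egr1, Per2 and Sik1 it was not used here. Below are the 250 bases before the start, 5′ to 3′ on the gene's strand, in lower case with matches to the motifs searched in capitals. Fos (chr12:85473640-85473889, + strand) holds the CRE core TGACG at 2 places, Fosb (chr7:19310046-19310295, - strand) holds it beside an EGR site, and Nr4a1 (chr15:101266596-101266845, + strand) holds it at 4 places, all on the opposite strand, beside an EGR site. Egr2 (chr10:67537620-67537869, + strand) has a CArG box between a pair of CRE cores, and Per1 (chr11:69098699-69098948, + strand) has a CRE core and an E-box, the element bound by clock factors. Egr2 and Per1 have further windows that are not shown. The other Per1 window, chr11:69099902-69100201, holds a CRE core and no E-box. For Egr2, chr10:67535249-67535548 holds neither element and chr10:67537316-67537615 a CArG box without a CRE core, while its other windows hold both.
Fos: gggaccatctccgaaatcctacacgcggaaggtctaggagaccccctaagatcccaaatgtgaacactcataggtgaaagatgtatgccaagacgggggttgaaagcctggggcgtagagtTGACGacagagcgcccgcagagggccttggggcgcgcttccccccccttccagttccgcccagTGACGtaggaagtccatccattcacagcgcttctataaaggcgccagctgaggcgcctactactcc
Fosb: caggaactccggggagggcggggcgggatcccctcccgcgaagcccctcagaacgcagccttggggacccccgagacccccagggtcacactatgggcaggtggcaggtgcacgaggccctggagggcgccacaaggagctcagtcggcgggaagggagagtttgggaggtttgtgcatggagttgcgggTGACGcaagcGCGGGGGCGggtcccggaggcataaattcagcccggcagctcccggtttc
Nr4a1: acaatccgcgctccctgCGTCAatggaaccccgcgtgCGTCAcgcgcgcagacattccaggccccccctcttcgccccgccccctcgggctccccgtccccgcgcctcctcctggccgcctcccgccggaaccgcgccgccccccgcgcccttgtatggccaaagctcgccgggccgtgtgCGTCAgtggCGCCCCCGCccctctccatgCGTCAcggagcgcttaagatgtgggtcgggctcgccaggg
Egr2: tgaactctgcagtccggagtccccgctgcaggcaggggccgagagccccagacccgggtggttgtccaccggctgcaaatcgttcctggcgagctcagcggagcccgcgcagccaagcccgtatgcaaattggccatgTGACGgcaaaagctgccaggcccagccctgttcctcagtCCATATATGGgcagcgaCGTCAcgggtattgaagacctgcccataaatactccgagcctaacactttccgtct
Per1: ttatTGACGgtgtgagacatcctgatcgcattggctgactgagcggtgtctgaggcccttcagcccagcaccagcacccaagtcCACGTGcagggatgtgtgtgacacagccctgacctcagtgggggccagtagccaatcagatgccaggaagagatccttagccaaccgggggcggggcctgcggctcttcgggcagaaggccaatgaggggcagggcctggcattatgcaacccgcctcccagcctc

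Motifs were searched on both strands of the whole 300-base windows of all tested genes that had one, 11859 in number, as a description without a test. The CRE core TGACG, which is also part of the full CRE TGACGTCA, was in a window of 8 of the 11 genes with a window called at 0.01 (72.7%), of 47.5% of the genes higher at 0.05, of 51.4% of those lower and of 33.6% of all. The full CRE was in 7.18% of the higher genes, 2.7% of the lower and 3.45% of all. For the EGR motif, GCGTGGGCG or GCGGGGGCG, the shares were 14.4%, 10.8% and 7.4%, for the E-box CACGTG 14.4%, 21.6% and 11.2%, for AP-1, TGANTCA, 4.42%, 5.41% and 6.19%, and for the CArG box 3.31%, 0% and 1.56%. The glucocorticoid response element matched 2 of 181 higher genes, 0 of 37 lower genes and 0.422% of all. Genes with more windows had more chances of a match. The genes called at 0.01 had 1.82 windows each, the higher genes 1.39, the lower genes 1.35 and all genes 1.27, and counted over windows the CRE core was in 55.0%, 38.6%, 42.0% and 29.0%. The 15 called genes were short. Their median span was 11.6 kb against 23.8 kb for all tested genes, none exceeded 100 kb, and 14.8% of all genes did, whereas the 236 higher genes had a median of 23.3 kb.

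Domains of macroH2A1 deposited in other mice of the series, 30 min after training, were laid over the same windows, as the series asks how this histone variant lies on genes that respond. Over the 181 higher genes with a window, a domain touched 12.7%, 17.1% and 13.3% of promoters in the 3 untrained mice and 4.42% and 4.97% in the 2 trained mice. Over all 11859 genes the shares were 17.3%, 25.0% and 18.5% in untrained mice and 10.1% and 11.5% in trained mice. Over the 37 lower genes with a window they were 16.2%, 13.5% and 16.2% against 16.2% and 13.5%. In each of the 5 mice the share over the higher genes lay below the share over all genes. With domains of an FDR under 0.001 alone, a limit chosen after seeing the data, the shares over the higher genes were 5.52%, 9.94% and 9.39% in untrained mice and 2.21% and 3.31% in trained mice, and over all genes 11.0%, 18.5% and 12.9% against 6.42% and 7.23%. Over the lower genes at that limit they were 8.11%, 10.8% and 13.5% against 10.8% and 10.8%. Without the limit, domains covered 369, 416 and 409 Mb of the genome in untrained mice and 325 and 334 Mb in trained mice. The share of all promoters under a domain was itself lower in the trained mice. No test was made of these shares, and the gene sets were not matched for expression level. The paper reports the lowest macroH2A binding on the most highly expressed genes, and the part of expression level in these shares was not tested.

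The shScr experiment gave a readout of contextual fear conditioning in mice that had no part in the calls. The paper's results and methods give different numbers of foot shocks, and which number applied to each experiment is not settled. On its own, edgeR called 0 of 15424 genes at an adjusted p under 0.05, with 1382 genes at an unadjusted p under 0.05, of which 722 were higher (4.68%) and 660 lower (4.28%), and DESeq2 called 263, of which 187 were higher (1.21%). All 15 genes called in intact mice had a higher mean in trained shScr mice, 12 of them at an unadjusted p under 0.05, and 10 were called by DESeq2. The median log2 fold change of the 15 was 1.23 in intact mice and 0.73 in shScr mice. The 15 were picked by their p in intact mice, which favours larger values there. The shScr counts also included introns, so these medians do not measure a difference in response. Egr2 had 0.877, 1.57 and 2.32 CPM in untrained and 9.36, 4.21 and 9.57 CPM in trained shScr mice. Arc had 45.6, 73.0 and 93.8 CPM against 217, 110 and 240 CPM. Fos had 2.95, 4.39 and 6.79 CPM against 13.1, 7.13 and 16.3 CPM. Trained shScr mouse 2 was the lowest of its group for all 3 genes, and still above the untrained mice. Of the 15 genes, 10 had all trained above all untrained shScr mice, as had 1037 of the 13930 genes tested in both experiments. The groups overlapped for Nr4a1, Per1, Egr4, Ak4 and Junb. Levels are not comparable between the experiments, since the libraries were made and counted differently.

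Of the 236 genes higher at 0.05 in intact mice, 226 were tested in shScr mice, where 209 had a positive log2 fold change, 90 were higher at an unadjusted p under 0.05 and none was lower at that threshold. Of the 47 lower genes 43 were tested, 34 were negative and 18 were lower at an unadjusted p under 0.05. Over the 13930 genes tested in both experiments, 6731 were positive and 7199 negative in shScr mice, with 678 higher and 605 lower at that threshold. List medians in shScr mice were 0.43 for immediate early transcription factors, 0.13 for synaptic effectors and 0.27 for feedback inhibitors. They were 0.31 for glucocorticoid-induced genes, 0.04 for clock genes, 0.07 for chromatin modifiers, 0.20 for hypoxia and glucose genes and 0.39 for NF-kappaB genes. The median was 0.15 for heat shock genes and -0.005 for all genes. Creb5, a relative of the ATF factors, fell by 0.58 on the log2 scale in intact mice at 0.05 and had a log2 fold change of -0.80 ± 0.12 in shScr mice, where DESeq2 called it (adjusted p = 4.11e-06). It was chosen after its values were seen.

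**Figure D5:**
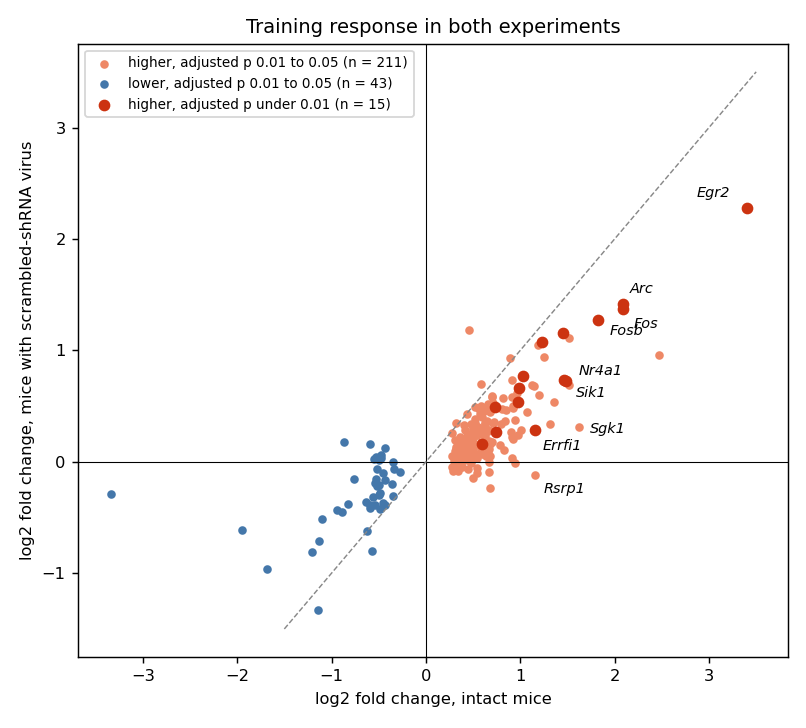
Log2 fold change of trained over untrained mice in intact CA1 (horizontal) and in CA1 with the scrambled-shRNA virus (vertical), 1 point per gene for the 269 genes called at an adjusted p under 0.05 in intact mice and tested in both. Dashed line, equal change. All 15 dark red genes are above 0 on both axes and lie below the line. They were picked in the intact mice, which favours larger values on the horizontal axis. Errfi1 lies at 0.29 on the vertical axis and Rsrp1, an orange point, at -0.12.

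The difference of the training response between experiments was tested over all 11 libraries in one model. Of 15317 genes edgeR called 2 at an adjusted p under 0.05, with 1468 at an unadjusted p under 0.05, and DESeq2 called 220. Errfi1 had a log2 fold change of 1.16 in intact mice and 0.29 in shScr mice, where its levels were 27.3, 28.6 and 27.2 CPM against 36.6, 31.9 and 33.1 CPM. The difference was 0.85 ± 0.09 (edgeR adjusted p = 0.0228). Rsrp1 had 1.15 in intact mice and -0.12 in shScr mice, at 76.7, 72.4 and 77.8 CPM against 67.8, 75.0 and 66.1 CPM, a difference of 1.25 ± 0.15 (edgeR adjusted p = 0.0374). Virus, surgery, library kit, counting and centre differed between the experiments together and cannot be told apart. Leaving out 1 library at a time gave between 0 and 2 genes.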

How the data were processed

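RNA of whole CA1 was extracted, and libraries were made with the NEBNext Ultra II kit and sequenced as paired reads. According to the labels and the study's methods, the authors trimmed adaptors with Trim Galore and Cutadapt, aligned to mm10 with STAR, counted reads per gene with featureCounts and tested with DESeq2 1.22.2; whether counting used strand is not given in the sources used here, so overlapping and antisense genes cannot be told apart. The deposited values were raw counts per gene and library, and 27 symbols had turned into spreadsheet dates and are not named. The table held 0 mitochondrial genes. The shScr counts were deposited as whole-number counts too. Domains of macroH2A1 were deposited per library with ChIP and input counts, an FDR (adjusted p-value) and a log2 ratio of ChIP over input, as the authors' broad-domain caller gave them.

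Genes were kept by filterByExpr (at least 10 counts in enough libraries, 15 in all), scaled by TMM and tested with edgeR 4.0.16 (quasi-likelihood, no fold limit, adjusted p under 0.01, the study's threshold; 0.05 for shScr mice and for the difference between experiments). SE was the log2 fold change over the root of F. DESeq2 1.42.0, RLE factors, library size alone, no filter, other thresholds, single libraries left out and a replicate block were alternatives; DESeq2 with a library left out and the domain limits were added after seeing the data. The scripts were checked on simulated counts. No pair of libraries was a duplicate, with chi-square per degree of freedom between 7.84 and 55.9. Precision is limited by 2 trained mice, for which an exact permutation test of 1 value cannot go below 0.1. Genes named in the text were fixed markers of the response, the called genes, the 4 of smallest p in each list and the 5 of highest level, and others are marked. Members and lists were chosen with earlier results of these data known. Other libraries of the series were not used here.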

Additional observations from a re-analysis of the deposited data

Results flagged for a closer look

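Errfi1 and Rsrp1 stood out because their training response differed between the intact and the shScr experiment by a test of the difference itself (edgeR quasi-likelihood interaction over 11 libraries, adjusted p under 0.05). The difference of log2 fold changes, intact minus shScr, was 0.85 for Errfi1 and 1.25 for Rsrp1, in both cases with a larger value in intact mice. Leaving out 1 library at a time, either gene could lose its call. No group had the 4 samples needed to test a single mouse against the rest of its group.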

How the results depend on the processing

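The 15 genes called in intact mice had a positive log2 fold change under every alternative run. Their number depended on the tool and on single mice. DESeq2 called 472 genes (364 higher, 108 lower), edgeR without a low-count filter 51 (47 higher, 4 lower), RLE factors 13, library size alone 20, and an adjusted p under 0.05 283 (236 higher, 47 lower); a fold limit of 1.2 left 15. Leaving out 1 library gave between 1 and 416 genes in edgeR (1 to 255 higher, 0 to 161 lower) and, added after seeing the data, in DESeq2 256 (208 higher, 48 lower), 1094 (685 higher, 409 lower) and 184 (155 higher, 29 lower) without untrained mouse 1, 2 and 3, and 68 (55 higher, 13 lower) and 169 (151 higher, 18 lower) without trained mouse 1 and 2. With the replicate block edgeR called 0 of 15972 genes at 0.01, with 1711 at an unadjusted p under 0.05. The numbers only name mice that differ between groups. Same-numbered mice had correlations of -0.0595 and -0.155 of their deviations from the group means. With 2 trained mice those deviations mirror each other, so the correlations can neither show nor exclude a pairing. Where a group kept 1 mouse, it was assumed to vary like the other group.

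In shScr mice DESeq2 called 263 genes (187 higher, 76 lower), and without 1 library edgeR called 0 to 1. DESeq2 called 82 (76 higher, 6 lower), 131 (109 higher, 22 lower) and 278 (163 higher, 115 lower) without untrained mouse 1, 2 and 3, and 198 (178 higher, 20 lower), 472 (300 higher, 172 lower) and 250 (176 higher, 74 lower) without trained mouse 1, 2 and 3; RLE factors, no filter and the replicate block left 0. For the difference between experiments, DESeq2 called 220 genes (99 higher in intact mice, 121 lower), RLE factors 4 (1 lower), no filter 5 (4 higher, 1 lower), the replicate block 0, and 1 library left out 0 to 2 (0 to 2 higher, 0 to 1 lower).

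Of the genes near 0, leaving out 1 library gave edgeR log2 fold changes of -0.13 to 0.036 for Jund, -0.014 to 0.072 for Per3 and -0.022 to 0.0101 for H2afy, so that their sign was not fixed. With the replicate block Per3 had -0.011. DESeq2 gave Jund 0.037 without trained mouse 1, Per3 -0.00044 and -0.012 without untrained mouse 2 and 3, and H2afy 0.0103 and 0.00082 without untrained mouse 1 and 2.

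List medians that moved by more than the spread of untrained mice with 1 library left out had these ranges. For the response lists they were 0.58 to 0.64 (immediate early transcription factors), 0.23 to 0.28 (feedback inhibitors of signalling), 0.33 to 0.61 (glucocorticoid-induced genes), 0.15 to 0.25 (histone demethylases and other chromatin modifiers), -0.041 to 0.0046 (macroH2A and other histone variants), 0.27 to 0.29 (hypoxia response and glucose use), 0.18 to 0.41 (NF-kappaB and interferon signalling), -0.066 to 0.0055 (potassium channels). For the marker lists they were -0.12 to -0.018 (CA2 and CA3 pyramidal neurons), -0.15 to 0.037 (thalamic neurons), -0.23 to 0.0062 (striatal neurons), -0.077 to 0.027 (inhibitory neurons), -0.034 to 0.039 (astrocytes), -0.16 to -0.073 (oligodendrocyte precursors), -0.100 to 0.17 (endothelium), -0.20 to 0.053 (choroid plexus and ependyma). With the replicate block, the median was 0.29 for hypoxia response and glucose use and 0.051 for thalamic neuron markers. Other list medians moved by less than that spread. Among these, dentate markers ranged from 0.28 to 1.12 and cortical markers from -0.58 to -0.15, and the sign was not fixed for clock genes (-0.0034 to 0.072), heat shock genes (-0.035 to 0.057), glutamate receptors (-0.019 to 0.12), GABA-A receptors (-0.083 to 0.021) and microglia (-0.0053 to 0.11).

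An alternative without mitochondrial genes was not run, since the table holds none. The cause of these shifts was not tested.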
